A study of Mus musculus with 9 samples.

Results

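The genes described here were 10 outputs of the circadian clock: Dbp, Tef, Hlf, Nfil3, Ciart, Bhlhe40, Bhlhe41, Wee1, Usp2 and Klf15. They were taken by gene symbol from a table of 16951 genes measured in 9 libraries of mouse heart RNA. All 10 symbols were found, each in 1 row, and all 10 passed the filter of 1 FPKM or more in at least 3 libraries, as did 11902 genes of the table. The genes were selected on the FPKM values of these same 9 libraries, with all 3 comparisons in view. Their levels and differences are therefore given as a description, with standard errors and without a test. Counts of calls over the 10 genes are printed beside the share of all genes, and nothing is read from them.

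The hearts came from C57BL/6 mice in 3 groups of 3 libraries. One group received angiotensin II and prostaglandin E1 (AngII+PGE1), one received angiotensin II alone (AngII), and one received saline. Angiotensin II raises blood pressure and enlarges the heart, and prostaglandin E1 (PGE1) is a prostanoid that acts on EP receptors. The title of the series concerns attenuation of that hypertrophy by PGE1 through EP3 and Netrin-1. Age, sex, dose, route, length of treatment, pooling of animals and the hour at which the hearts were taken are not given in the sources used here. Whether each library had its own animal is likewise unstated, and the p-values below thus describe the variation among libraries, part of which may be technical. Libraries are numbered 1 to 3 within each group, and the numbers pair nothing.

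The circadian clock is a loop in which CLOCK and BMAL1 (the product of Arntl) bind E-box sequences and switch on their own repressors, the PER and CRY proteins, together with a large set of output genes. Among those outputs, DBP, TEF and HLF are the PAR bZIP activators. They bind D-box sequences, which NFIL3 occupies as a repressor, so that many D-box genes follow the balance of the activators and NFIL3. The nuclear receptors of the ROR and REV-ERB families act in a second loop on Arntl and Nfil3. In the heart the loop is known to run in cardiomyocytes and to time genes of metabolism, contraction and growth.

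Saline 2 stood apart from the other saline libraries. Over the 10 genes, the mean absolute difference on the log2(FPKM + 1) scale was 1.38 between saline 1 and saline 2 and 1.37 between saline 2 and saline 3, but 0.144 between saline 1 and saline 3. Over all 11902 genes tested, the same 3 distances were 0.450, 0.442 and 0.137. By the 10 genes, saline 2 lay nearest to AngII 1, at a distance of 0.317. Over all genes tested it lay nearest to AngII+PGE1 1, at 0.216, which in turn lay nearer to saline 2 than to any other library. AngII+PGE1 1 lay 0.380 and 0.430 from AngII+PGE1 2 and 3 over all genes tested, while AngII+PGE1 2 and 3 lay 0.210 apart. AngII+PGE1 1 was nearer to AngII 1, 2 and 3, at 0.332, 0.357 and 0.313, than to either library of its own group. The differences of the 10 genes from saline are given with and without saline 2, and those of the other genes named where leaving it out changed a call. That choice was made with the values of these libraries known. The hour at which the hearts were taken is not given. A difference between groups in clock genes therefore cannot be told apart here from a difference in that hour.

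Cardiomyocyte markers were abundant in every library: the summed level of 8 markers was 53374 to 69055 FPKM in AngII+PGE1, 51027 to 74448 FPKM in AngII and 48234 to 72753 FPKM in saline. The 7 fibroblast markers summed to 382 to 430 FPKM in AngII+PGE1, 523 to 1597 FPKM in AngII and 487 to 555 FPKM in saline. The 6 endothelial markers summed to 196 to 267 FPKM in AngII+PGE1, 172 to 291 FPKM in AngII and 338 to 378 FPKM in saline. The 4 smooth muscle markers summed to 63.6 to 98.5 FPKM in AngII+PGE1, 94.8 to 283 FPKM in AngII and 133 to 261 FPKM in saline, and the 6 macrophage markers to 136 to 207 FPKM in AngII+PGE1, 115 to 219 FPKM in AngII and 151 to 245 FPKM in saline. The 4 erythroid markers varied widely within groups, with sums of 93.6 to 6364 FPKM in AngII+PGE1, 190 to 1776 FPKM in AngII and 95.1 to 1030 FPKM in saline, where saline 2 had the 1030. Of 5 lymphocyte markers, 4 were below 1 FPKM in every library, as were 4 of 5 skeletal muscle markers and 3 of the 4 adipocyte markers in the table. The sums hide markers of a type that went different ways. Among the cardiomyocyte markers, the means of Myh6, Actc1, Ryr2 and Pln were lower in AngII than in saline. Those of Tnnt2, Tnni3, Actn2 and Myl2 were higher. Acta2 averaged 156 FPKM in saline and 110 FPKM in AngII, while the means of Myh11, Tagln and Cnn1 were higher in AngII than in saline. Among the fibroblast markers, the means of the collagens and Dcn were higher in AngII than in saline, and those of Pdgfra and Tcf21 lower. The mean of Lum was nearly equal, at 23.6 and 23.7 FPKM. The collagen means rested largely on AngII 2, where Col1a1 had 376 FPKM, against 56.4 and 125 FPKM in AngII 1 and AngII 3. Tcf21 in AngII 2, at 10.3 FPKM, was above every saline library. In heart tissue, fewer cells of a type and less RNA per cell cannot be told apart. The part of these cell types in the results below was not tested.

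Because several of the genes moved together across the libraries, their promoters were read for the elements through which the clock is known to act. RefSeq promoter windows (GRCm38.p6, 250 bases before to 50 bases after the gene start) were found for 8 of the 10 genes, with 2 windows for Tef and none for Bhlhe40 and Wee1. Both strands were searched, and no match of one motif overlapped a match of another in these windows. The E-box CACGTG occurred in 4 of the 8 genes (Tef, Ciart, Bhlhe41 and Klf15). By window this was 5 of their 9 windows, against 7.15% of the 32851 windows of the table. The element bound by ROR and REV-ERB receptors, searched as TAGGTCA or TGGGTCA, occurred in 1 of the 8, Nfil3. By window this was 1 of 9, against 6.45% of all windows. The D-box, searched as TTATGTAA or TTACGTAA, occurred in none of the 8 genes and none of their 9 windows, against 1.06% of all windows. The GC box GGGCGG, which is common in mammalian promoters, occurred in all 8 genes and all 9 of their windows, against 35.7% of all windows. A match is a run of letters and not a shown binding site. The windows with an E-box or ROR match are printed below from 250 bases before the start, 5′ to 3′ on the gene's own strand, with the E-box or the ROR element in capitals and the first of the Tef windows shown. Ciart, on the minus strand at chr3:95882229-95882478, holds 3 E-boxes that begin at -116, -58 and -44 from the start. Klf15, on the plus strand at chr6:90462326-90462578, holds 3 that begin at -228, -172 and -3, and its sequence is printed to the end of the E-box that runs over the start. Bhlhe41, on the minus strand at chr6:145865421-145865670, holds 1 at -153. Tef, on the plus strand at chr15:81802423-81802672, holds 1 at -127. Nfil3, on the minus strand at chr13:52981040-52981289, holds the reverse complement of the ROR element at -12.
Ciart: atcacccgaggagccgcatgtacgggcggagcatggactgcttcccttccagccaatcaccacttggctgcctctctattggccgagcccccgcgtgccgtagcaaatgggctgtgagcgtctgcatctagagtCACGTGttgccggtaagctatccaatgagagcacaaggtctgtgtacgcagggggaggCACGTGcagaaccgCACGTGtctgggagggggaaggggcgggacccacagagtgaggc
Klf15: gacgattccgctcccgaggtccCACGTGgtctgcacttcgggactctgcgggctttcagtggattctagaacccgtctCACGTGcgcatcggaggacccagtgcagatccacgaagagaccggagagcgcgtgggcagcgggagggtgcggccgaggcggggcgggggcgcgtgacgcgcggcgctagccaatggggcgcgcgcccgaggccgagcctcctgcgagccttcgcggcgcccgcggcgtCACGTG
Bhlhe41: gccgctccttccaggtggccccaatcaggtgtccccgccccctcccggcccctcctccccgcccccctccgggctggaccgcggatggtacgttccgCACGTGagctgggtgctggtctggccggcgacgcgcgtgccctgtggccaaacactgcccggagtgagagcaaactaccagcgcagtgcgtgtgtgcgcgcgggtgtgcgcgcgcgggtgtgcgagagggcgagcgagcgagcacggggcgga
Tef: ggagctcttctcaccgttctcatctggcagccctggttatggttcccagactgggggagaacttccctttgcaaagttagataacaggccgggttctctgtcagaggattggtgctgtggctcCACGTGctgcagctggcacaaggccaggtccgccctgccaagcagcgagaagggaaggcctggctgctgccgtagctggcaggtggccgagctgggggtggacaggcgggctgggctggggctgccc
Nfil3: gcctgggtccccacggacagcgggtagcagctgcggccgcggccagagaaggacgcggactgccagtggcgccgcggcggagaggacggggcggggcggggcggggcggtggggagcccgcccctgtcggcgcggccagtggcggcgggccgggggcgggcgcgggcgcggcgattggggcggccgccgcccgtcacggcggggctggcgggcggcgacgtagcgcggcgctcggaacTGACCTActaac
Of the 5 windows shown, that of Nfil3 is the only one with a ROR element and no E-box. Among the 10 genes, only Nfil3 was higher in both saline 1 and saline 3 than in all 6 AngII+PGE1 and AngII libraries. Klf15, with 3 E-boxes, did not share the library pattern of Ciart, which also has 3. Dbp, Hlf and Usp2 had none of the 3 clock motifs in this window, and Dbp and Usp2 shared the pattern of Ciart. Bhlhe40 and Wee1 had no window. A relation between the motifs and the library patterns was not tested. Among 11 core clock genes with a window, the E-box was found in 2 (Per1 and Cry1) the D-box in 1 (Per3, with 2 matches) and the ROR element in 1 (Arntl, in the second of its 2 windows, beginning at 31 after the start).

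The PAR bZIP activators had unequal profiles. Dbp, the most strongly cycling of them in most tissues, had 119, 81.4 and 69.3 FPKM in AngII+PGE1, 172, 130 and 107 FPKM in AngII, and 9.88, 182 and 9.83 FPKM in saline. Saline 1 and saline 3 lay far below all other libraries, while saline 2 was the highest of the 9, so the saline group overlapped both of the others. The saline 2 level was 18.4 times the mean of saline 1 and saline 3. AngII averaged 136 ± 33.3 FPKM and saline 67.1 ± 99.1 FPKM (SD, n = 3 each). On the log2(FPKM + 1) scale, which is used for all differences here and understates those of low genes, AngII differed from saline by 2.28 (SE 0.88). Without saline 2 the difference was 3.63 (SE 0.26). AngII+PGE1 differed from AngII by -0.60 (SE 0.88) and from saline by 1.67 (SE 0.88), or 3.03 (SE 0.26) without saline 2.

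Tef had 67.8, 66.2 and 69.1 FPKM in AngII+PGE1, 91.9, 55.7 and 62.5 FPKM in AngII, and 24.7, 65.6 and 25.8 FPKM in saline. The AngII+PGE1 libraries were nearly equal and lay above all 3 saline libraries, with saline 2 just under them. AngII and saline overlapped through saline 2 alone. The difference of AngII+PGE1 from AngII was -0.01 (SE 0.34), that of AngII from saline 0.96 (SE 0.34) and that of AngII+PGE1 from saline 0.94 (SE 0.34). Without saline 2 the differences from saline were 1.40 (SE 0.20) for AngII and 1.39 (SE 0.20) for AngII+PGE1.

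Hlf, the third activator, was the lowest of the 3 in every library and did not follow Dbp. It had 10.2, 9.63 and 7.66 FPKM in AngII+PGE1, 5.38, 4.56 and 3.27 FPKM in AngII, and 5.20, 6.48 and 4.96 FPKM in saline. All 3 AngII+PGE1 libraries were above all 6 others, and AngII and saline overlapped. AngII+PGE1 averaged 9.15 ± 1.31 FPKM and AngII 4.40 ± 1.06 FPKM (SD, n = 3 each), a difference of 0.92 (SE 0.19). From saline AngII+PGE1 differed by 0.63 (SE 0.19), or 0.73 (SE 0.20) without saline 2, and AngII from saline by -0.29 (SE 0.19), or -0.19 (SE 0.20) without it. FPKM is scaled per transcript length, so levels can be set beside each other between genes: Hlf gave 5.14% to 6.12% of the summed level of the 3 activators in AngII+PGE1, 1.90% to 2.39% in AngII, and 2.55% to 13.1% in saline, where the 2.55% was saline 2. Dbp gave 47.5% to 60.5% of that sum in AngII+PGE1, 61.8% to 68.4% in AngII, and 24.2% to 71.6% in saline.

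Nfil3, the repressor that shares the D-box with the activators, was nearly the mirror of Dbp. It had 6.77, 7.30 and 9.23 FPKM in AngII+PGE1, 4.28, 3.84 and 6.76 FPKM in AngII, and 16.5, 2.99 and 16.4 FPKM in saline. Saline 1 and saline 3 were above all other libraries and saline 2 was the lowest of the 9, at 0.182 times their mean. Every AngII+PGE1 library was above every AngII library, by a margin of 6.77 against 6.76 FPKM at the closest, and the group difference was 0.58 (SE 0.49). AngII differed from saline by -0.87 (SE 0.49), or -1.58 (SE 0.22) without saline 2. The difference of AngII+PGE1 from saline was -0.29 (SE 0.49), or -1.0 (SE 0.22) without saline 2. The sign of the last of these turned to 0.06 when saline 1 or saline 3 was left out in place of saline 2.

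The ratio of the summed activators to Nfil3 joins these 4 genes in 1 value per library. On a log2 scale it was 4.87, 4.43 and 3.98 in AngII+PGE1, 5.98, 5.63 and 4.67 in AngII, and 1.27, 6.41 and 1.31 in saline. AngII+PGE1 averaged 4.43 ± 0.44, AngII 5.43 ± 0.68 and saline 2.99 ± 2.96 (SD, n = 3 each). In linear terms the activators summed to 15.8 to 29.1 times Nfil3 in AngII+PGE1, 25.5 to 63.0 times in AngII, 2.41 and 2.47 times in saline 1 and saline 3, and 84.8 times in saline 2. AngII+PGE1 and AngII overlapped, and saline 2 was beyond both. Without saline 2 the saline mean was 1.29.

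**Figure D1:**
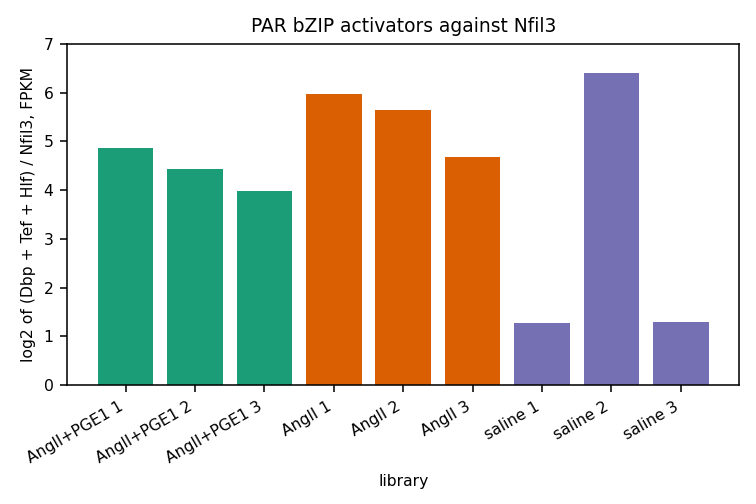
Log2 ratio of the summed FPKM of Dbp, Tef and Hlf to the FPKM of Nfil3, 1 bar per library, in AngII+PGE1, AngII and saline hearts. Saline 1 and saline 3 have ratios of 1.27 and 1.31, while saline 2 at 6.41 is the highest of the 9 libraries.

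The repressors that act on E-boxes fell into separate profiles. Ciart, which encodes CHRONO, a repressor of CLOCK and BMAL1, had 7.87, 5.10 and 8.88 FPKM in AngII+PGE1, 14.0, 9.36 and 5.02 FPKM in AngII, and 1.73, 14.2 and 1.23 FPKM in saline. Saline 1 and saline 3 were below all other libraries and saline 2 was the highest, at 9.61 times their mean. Its spread within AngII was also wide, with the highest library 2.80 times the lowest. The difference of AngII+PGE1 from AngII was -0.27 (SE 0.63), that of AngII from saline 1.11 (SE 0.63) and that of AngII+PGE1 from saline 0.84 (SE 0.63). Without saline 2 the last 2 were 1.99 and 1.72 (SE 0.35 each).

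Bhlhe41, which encodes DEC2, had 6.87, 8.31 and 7.54 FPKM in AngII+PGE1, 7.53, 9.54 and 6.86 FPKM in AngII, and 3.53, 8.38 and 3.55 FPKM in saline. It showed the Dbp pattern at smaller size, with saline 1 and saline 3 low and saline 2 within the range of the AngII libraries. AngII differed from saline by 0.62 (SE 0.27) and AngII+PGE1 from saline by 0.56 (SE 0.27), or by 0.97 and 0.91 (SE 0.17 each) without saline 2. Between AngII+PGE1 and AngII the difference was -0.06 (SE 0.27).

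Bhlhe40, which encodes the related repressor DEC1, did not share that pattern. It had 11.2, 21.2 and 21.4 FPKM in AngII+PGE1, 8.92, 17.8 and 8.64 FPKM in AngII, and 22.8, 12.1 and 16.4 FPKM in saline. Each group held both high and low libraries, and all 3 pairs of groups overlapped. The difference of AngII+PGE1 from AngII was 0.58 (SE 0.33), that of AngII from saline -0.53 (SE 0.33) and that of AngII+PGE1 from saline 0.05 (SE 0.33). Without saline 2 the last 2 were -0.74 and -0.16 (SE 0.35 each).

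Usp2 encodes a deubiquitinating enzyme whose transcript cycles in many tissues. It was among the most abundant of the 10 genes, with 105, 85.6 and 92.3 FPKM in AngII+PGE1, 122, 79.9 and 102 FPKM in AngII, and 42.7, 101 and 51.4 FPKM in saline. Saline 1 and saline 3 were again below all other libraries, and saline 2 was within the AngII range. AngII differed from saline by 0.71 (SE 0.29), or 1.07 (SE 0.20) without saline 2, and AngII+PGE1 from saline by 0.62 (SE 0.29), or 0.99 (SE 0.20). For AngII+PGE1 against AngII the difference was -0.09 (SE 0.29).

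Wee1 encodes the kinase that restrains CDK1 before mitosis and is a direct E-box target of the clock in mouse liver. It had 4.22, 7.39 and 7.40 FPKM in AngII+PGE1, 4.94, 4.36 and 1.81 FPKM in AngII, and 3.26, 2.45 and 3.70 FPKM in saline. The AngII+PGE1 libraries were all above the saline libraries but overlapped AngII, since AngII+PGE1 1 was below AngII 1 and AngII 2. AngII+PGE1 differed from saline by 0.80 (SE 0.30), or 0.68 (SE 0.33) without saline 2, and from AngII by 0.68 (SE 0.30). AngII differed from saline by 0.12 (SE 0.30), which was 0.00 (SE 0.33) without saline 2.

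Klf15 encodes a Krüppel-like factor that restrains hypertrophic growth in mouse heart and drives branched-chain amino acid breakdown. It had 25.1, 19.4 and 24.5 FPKM in AngII+PGE1, 15.6, 16.8 and 18.0 FPKM in AngII, and 21.2, 20.2 and 23.6 FPKM in saline. The 3 AngII libraries were the lowest 3 of the 9, and AngII+PGE1 and saline overlapped. AngII+PGE1 averaged 23.0 ± 3.12 FPKM, AngII 16.8 ± 1.23 FPKM and saline 21.6 ± 1.73 FPKM (SD, n = 3 each). AngII+PGE1 differed from AngII by 0.43 (SE 0.15), AngII from saline by -0.35 (SE 0.15) and AngII+PGE1 from saline by 0.08 (SE 0.15). Saline 2 had 0.903 times the mean of the other saline libraries, and the difference of AngII from saline without it was -0.39 (SE 0.16) and that of AngII+PGE1 from saline 0.03 (SE 0.16).

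**Figure D2:**
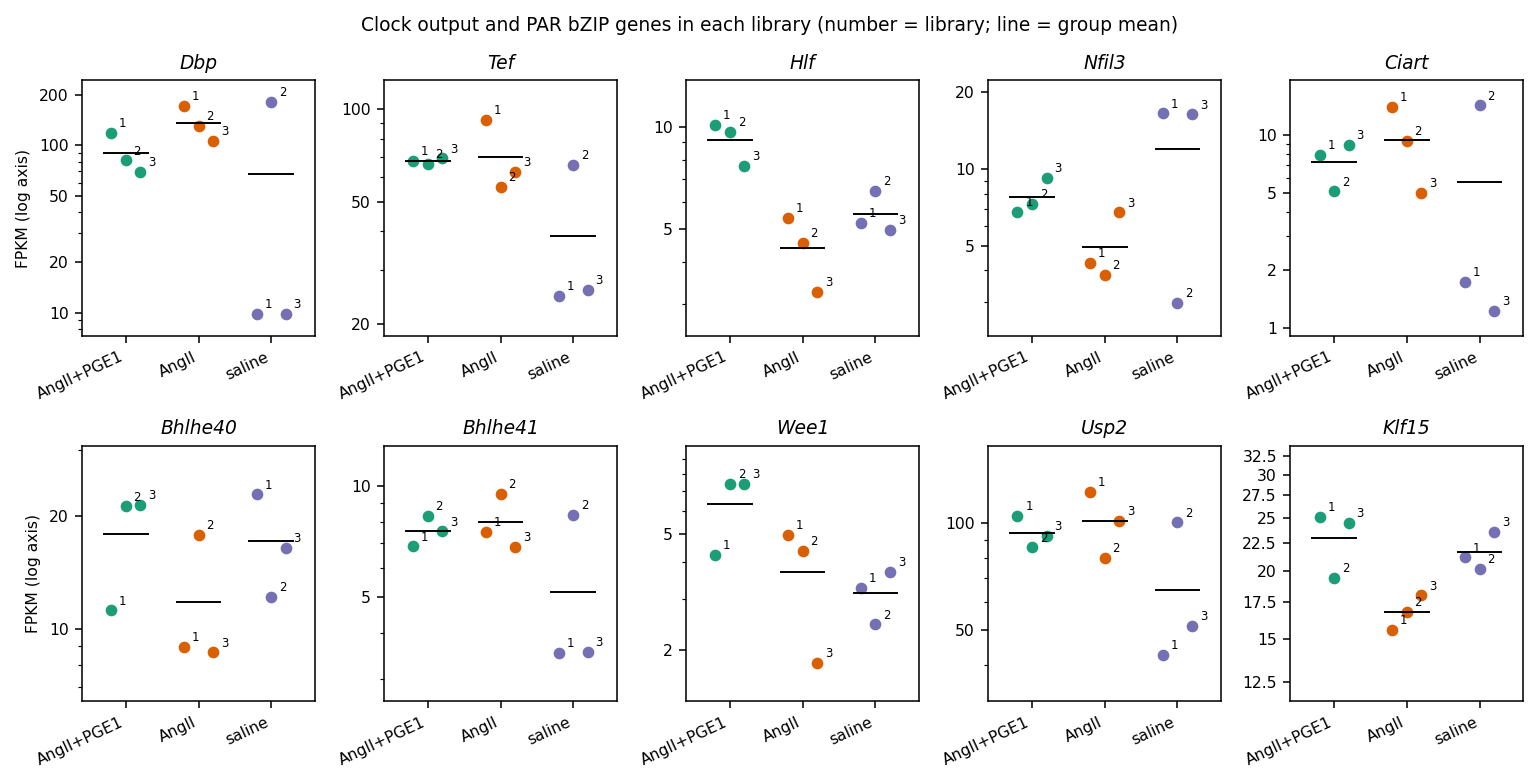
FPKM on a log axis for each of the 10 genes, with 1 point per library numbered within its group and a line at the group mean, in AngII+PGE1, AngII and saline. In Dbp, Tef, Ciart, Bhlhe41 and Usp2, saline 1 and saline 3 lie below the 7 other libraries, and in Nfil3 above them, while Hlf is highest in AngII+PGE1 and Klf15 lowest in AngII.

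Between AngII and saline, the limma model with all 9 libraries called none of the 10 genes at an adjusted p under 0.05, against 3.11% of the 11902 genes tested. At an unadjusted p under 0.05 the numbers were 5 of the 10 and 35.0% of all genes tested. The groups did not overlap for 1 of the 10, Klf15, which was lower in AngII, while 33.7% of all genes tested did not overlap in one direction or the other. The median difference over the 10 genes was 0.37, against 0.00 over all genes tested. Without saline 2, limma called 6 of the 10, of which 5 were higher and 1 lower in AngII, against 38.1% of the genes then tested. Saline 2 was left out with its values known, and the genes were selected with all 3 comparisons in view. Nothing is therefore read from these counts or from those of the other comparisons.

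Between AngII+PGE1 and AngII, limma called none of the 10 genes with all 9 libraries, against 0.403% of the genes tested, and 3 of the 10 had an unadjusted p under 0.05, against 33.6% of all. The groups did not overlap for Hlf, Nfil3 and Klf15, all 3 higher in AngII+PGE1, while 36.1% of all genes tested did not overlap. The median difference was 0.21 over the 10 genes and -0.08 over all. With saline 2 left out of the fit, 1 of the 10 was called, higher in AngII+PGE1, against 20.6% of the genes then tested. Without AngII+PGE1 1 the difference was larger for Bhlhe40, at 0.87 (SE 0.32), and for Wee1, at 0.91 (SE 0.30). It was smaller for Hlf, at 0.85 (SE 0.21), and for Klf15, at 0.36 (SE 0.17). The differences of Tef, Bhlhe41 and Usp2 in this comparison were under 0.1 in size, and their sign turned to positive under median-ratio scaling of the libraries. That scaling moved the median over all genes to 0.04.

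Between AngII+PGE1 and saline, limma called none of the 10 genes with all 9 libraries, against 0.0168% of the genes tested, and 3 of the 10 had an unadjusted p under 0.05, against 4.23% of all. The groups did not overlap for Tef, Hlf and Wee1, all 3 higher in AngII+PGE1, while 10.2% of all genes tested did not overlap. The median difference was 0.63 over the 10 genes and -0.07 over all. Without saline 2, limma called 2 of the 10, both higher in AngII+PGE1, against 0.194% of the genes then tested. The 3 comparisons share libraries pairwise, so their values for a gene are not independent of each other. The genes were selected with all 3 in view, so these counts and shares are a description and nothing is read from them.

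**Figure D3:**
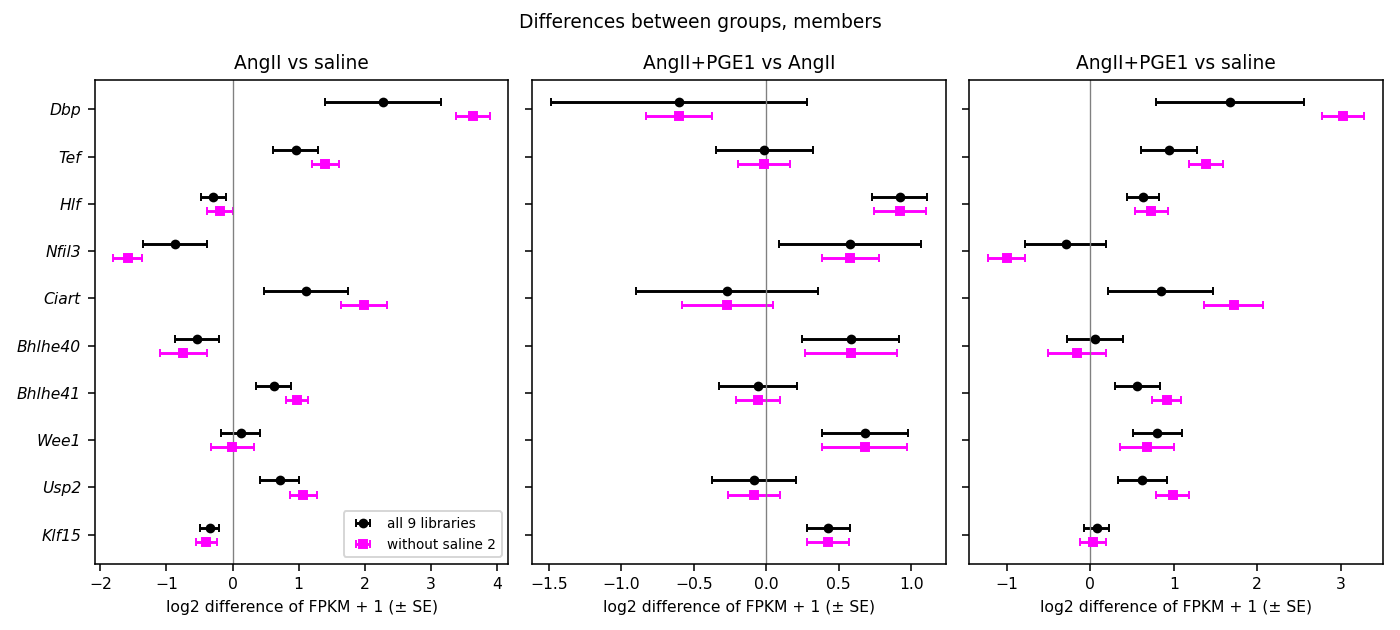
Difference between group means on the log2(FPKM + 1) scale, with its standard error from limma, for each of the 10 genes in the 3 comparisons, from all 9 libraries (black circles) and without saline 2 (magenta squares). Between AngII and saline, Dbp is at 2.28 with saline 2 and at 3.63 without it, Nfil3 at -0.87 and -1.58, and Klf15 at -0.35 and -0.39.

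The 10 genes also differed in how far they spread within a group. Among the 3 saline libraries, the range of log2(FPKM + 1) was 4.08 for Dbp, the 5th widest of the 11902 genes tested, and 2.77 for Ciart, the 18th widest. Nfil3 had a range of 2.14 (53rd) and Tef 1.37 (328th), whereas Hlf with 0.33, Wee1 with 0.45 and Klf15 with 0.21 were near or below the median over all genes of 0.43. Among the AngII libraries, the widest of the 10 was Ciart with 1.32, ranked 268th, and Dbp had 0.69. Among the AngII+PGE1 libraries, Bhlhe40 with 0.88 was the widest and Tef with 0.06 the narrowest.

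**Figure D4:**
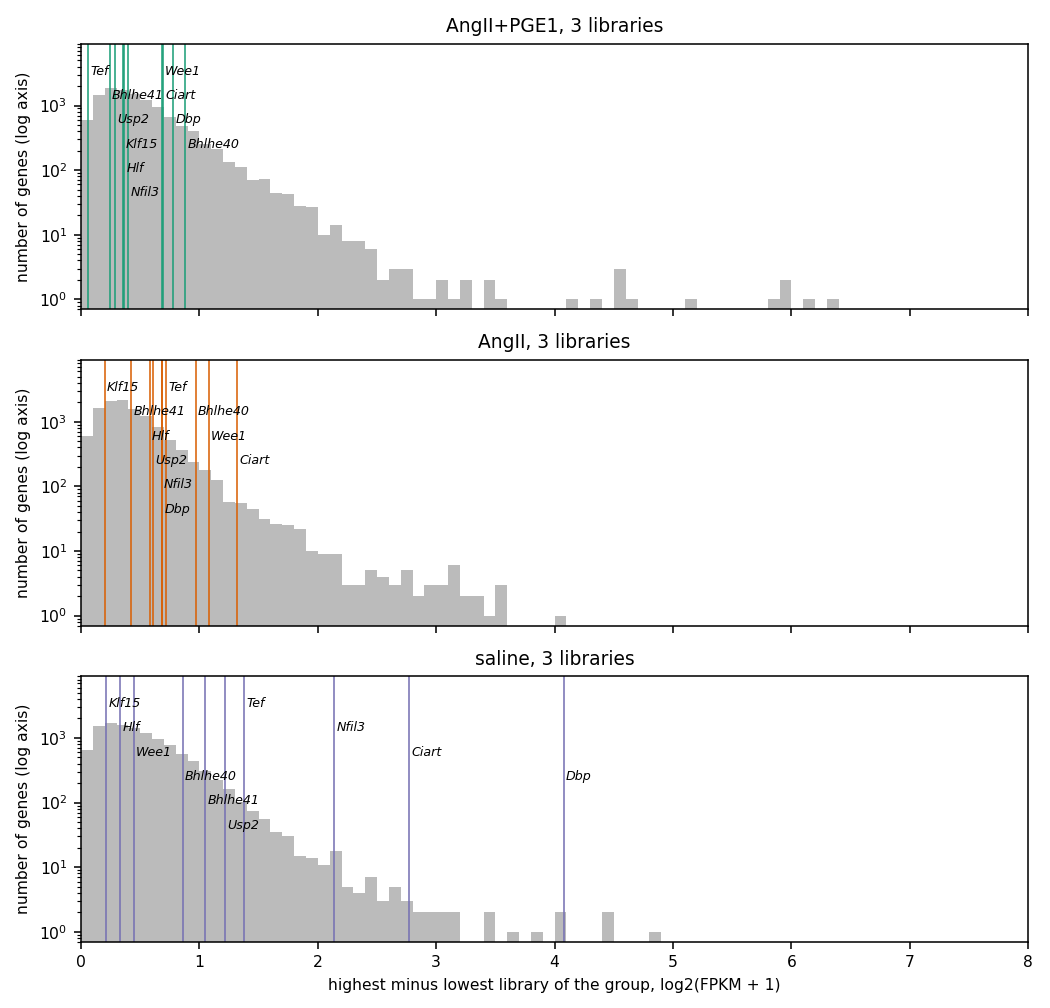
Distribution over all genes tested of the range between the highest and the lowest library of a group, on the log2(FPKM + 1) scale (number of genes on a log axis), with the 10 genes marked as lines, for AngII+PGE1, AngII and saline. In saline, Dbp (4.08), Ciart (2.77) and Nfil3 (2.14) lie in the far tail, while the widest of the 10 is Ciart (1.32) in AngII and Bhlhe40 (0.88) in AngII+PGE1.

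Part of the core clock was arranged across the libraries as Dbp or Nfil3 was. The core clock genes were listed apart from the 10 genes, but with earlier results of these data known. They were read in the same 9 libraries, so their likeness to the 10 genes is not independent of them. In the activating limb, 4 of 5 listed genes were tested and limma called none in any of the 3 comparisons with all 9 libraries. At an unadjusted p under 0.05 there were 3 of the 4 between AngII and saline, 1 between AngII+PGE1 and AngII, and 3 between AngII+PGE1 and saline, against 35.0%, 33.6% and 4.23% of all genes tested in those comparisons. Their median difference between AngII and saline was -0.58, against 0.00 over all genes tested. Arntl, which encodes BMAL1, had 0.57, 1.06 and 1.24 FPKM in AngII+PGE1, 0.21, 0.89 and 0.86 FPKM in AngII, and 12.1, 1.34 and 11.3 FPKM in saline. Saline 1 and saline 3 were high, as in Nfil3, and saline 2 was at 0.115 times their mean. Unlike in Nfil3, saline 2 was still above every AngII+PGE1 and AngII library, by 1.34 against 1.24 FPKM at the closest. The saline group thus overlapped neither of the others. Its difference between AngII and saline was -2.15 (SE 0.55, limma adjusted p = 0.0580), which was -2.97 (SE 0.24, adjusted p = 0.00147) without saline 2, and the adjusted p ran from 0.000119 to 0.256 over 17 alternative settings. Npas2, a paralogue of Clock, had a difference of -0.91 (SE 0.31, limma adjusted p = 0.0858), which was -1.35 (SE 0.16, adjusted p = 0.00283) without saline 2, and Clock itself -0.24 (SE 0.18, adjusted p = 0.329). Rora, a ROR receptor gene, had, between AngII+PGE1 and AngII, a difference of -0.73 (SE 0.27, limma adjusted p = 0.102), which was -1.03 (SE 0.21, adjusted p = 0.0179) without AngII+PGE1 1.

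In the repressing limb, all 7 listed genes were tested and limma called none in any of the 3 comparisons with all 9 libraries, with 4, 2 and 2 of the 7 at an unadjusted p under 0.05 in the same order of comparisons, beside the same 35.0%, 33.6% and 4.23% of all genes. Per2 had 12.6, 6.04 and 7.72 FPKM in AngII+PGE1, 18.9, 11.5 and 7.32 FPKM in AngII, and 0.66, 8.59 and 0.54 FPKM in saline. Per3 had 13.6, 6.92 and 6.31 FPKM in AngII+PGE1, 20.9, 12.8 and 10.5 FPKM in AngII, and 1.58, 11.6 and 1.74 FPKM in saline. Both were arranged as Dbp was, with saline 2 at 14.3 times the mean of saline 1 and saline 3 for Per2 and 6.98 times for Per3. Between AngII and saline, Per2 differed by 2.13 (SE 0.63, limma adjusted p = 0.0709, range 0.000329 to 0.277 over 18 alternatives) and Per3 by 1.76 (SE 0.55, adjusted p = 0.0756, range 0.000284 to 0.287). Without saline 2 these were 2.99 (SE 0.36, limma adjusted p = 0.00284) and 2.51 (SE 0.33, adjusted p = 0.00332). Neither gene was called between AngII and saline in any setting that kept saline 2. Per1, which also responds to glucocorticoids, differed by only -0.22 (SE 0.21, limma adjusted p = 0.463). Cry2 was arranged more as Hlf was, with 9.06, 12.4 and 13.0 FPKM in AngII+PGE1, 5.63, 5.82 and 5.39 FPKM in AngII, and 6.81, 8.37 and 8.79 FPKM in saline. Cry2 differed between AngII+PGE1 and AngII by 0.90 (SE 0.17, limma adjusted p = 0.0525), and over 18 alternatives the adjusted p ran from 0.000945 to 0.198, with 0.0162 without AngII+PGE1 1 and 0.0181 without saline 2. Without saline 2, the calls between AngII and saline were 1 higher and 2 lower of 4 in the activating limb and 3 higher of 7 in the repressing limb, beside the 38.1% of all genes given above. In AngII+PGE1 against AngII they were 0 of 4 and 1 higher of 7, beside 20.6%.

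**Figure D5:**
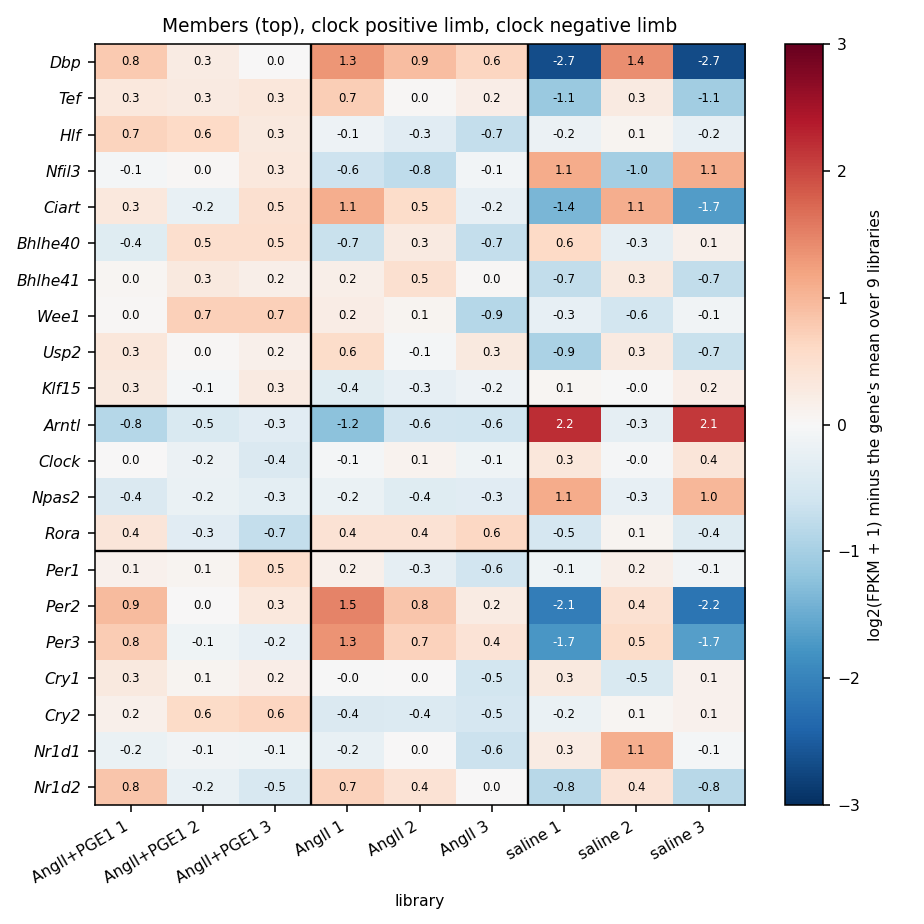
Log2(FPKM + 1) minus the gene's mean over the 9 libraries (colour and printed value) for the 10 output genes, the tested genes of the activating limb and those of the repressing limb, in AngII+PGE1, AngII and saline libraries. Dbp, Ciart, Per2 and Per3 are low and Nfil3, Arntl and Npas2 high in saline 1 and saline 3, and in these 7 genes saline 2 has the sign of most AngII libraries.

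Likeness to Dbp was measured by Pearson's r of log2(FPKM + 1) over the 9 libraries, which is dominated by the gap between saline 1 and saline 3 and the rest, and is given as a description without a test. Outside the 10 genes, the most alike of all genes tested were Tcap with r = 0.98 (Spearman's rho 0.87), Per3 with 0.97 (0.87) and Per2 with 0.96 (0.83). Tcap encodes the titin cap of the Z-disc. It had 2098, 1771 and 1595 FPKM in AngII+PGE1, 3382, 1630 and 2067 FPKM in AngII, and 439, 3144 and 530 FPKM in saline, with saline 1 and saline 3 again the lowest. The most opposite were Irs2, an insulin receptor substrate gene, with r = -0.99 (rho -0.97), Akap10, which encodes an anchor of protein kinase A, with -0.98 (-0.87), and Auts2 with -0.98 (-0.85). Of the 10 genes, Tef and Usp2 had r = 0.94 with Dbp, Ciart 0.94 and Bhlhe41 0.93, while Nfil3 had -0.94. Hlf had 0.17, Wee1 0.04, Klf15 -0.45 and Bhlhe40 -0.56. For Tef, whose rho was 0.45, and for Usp2 and Bhlhe41, with rho of 0.67 and 0.65, the order among the 7 other libraries followed Dbp less closely than r alone shows.

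Likeness to Nfil3 was measured in the same way. The most alike were Ppip5k1, which encodes an inositol pyrophosphate kinase, with r = 0.97 (rho 0.95), Tbxas1, which encodes thromboxane synthase, with 0.96 (0.97), and Fv1 with 0.95 (0.97). The most opposite were Dph7 with -0.97 (-0.96) and the growth factor genes Vegfd with -0.96 (-0.95) and Pdgfd with -0.96 (-0.92). Arntl, a target of the same receptors as Nfil3, had r = 0.82 (rho 0.53).

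Other genes known to cycle in the heart or in most tissues were read from a list of 10, of which 9 were tested. Limma called none in any of the 3 comparisons with all 9 libraries, with 4, 3 and 1 of the 9 at an unadjusted p under 0.05 in the same order of comparisons, against 35.0%, 33.6% and 4.23% of all genes tested. Without saline 2 it called 2 higher and 2 lower of the 9 between AngII and saline (38.1% of all genes), 1 higher between AngII+PGE1 and AngII (20.6%) and 0 between AngII+PGE1 and saline (0.194%). With all libraries their median difference between AngII and saline was -0.30, with 3 positive and 6 negative. Tspan4, a tetraspanin gene, had 36.8, 27.3 and 25.2 FPKM in AngII+PGE1, 37.3, 46.5 and 26.3 FPKM in AngII, and 11.2, 35.8 and 13.1 FPKM in saline, the arrangement of Dbp. Its difference between AngII and saline was 0.99 (SE 0.38, limma adjusted p = 0.105), and 1.49 (SE 0.25, adjusted p = 0.00488) without saline 2. Bdh1, which encodes the mitochondrial ketone body dehydrogenase, had 0.95 (SE 0.33, limma adjusted p = 0.0905), with an adjusted p of 0.0231 without saline 2, and Tsc22d3, also a glucocorticoid target, -0.25 (SE 0.17, adjusted p = 0.318). Between AngII+PGE1 and AngII, Dgat2, a triglyceride synthesis gene, had 0.90 (SE 0.24, limma adjusted p = 0.0635) and Alas1, the first enzyme of haem synthesis, 0.64 (SE 0.41, adjusted p = 0.283). Without AngII+PGE1 1 the difference was 1.15 (SE 0.30, limma adjusted p = 0.0267) for Alas1, whose adjusted p ran from 0.00752 to 0.787 over 18 alternatives, and 1.08 (SE 0.24, adjusted p = 0.0194) for Dgat2. For Dgat2 the adjusted p was also lower without saline 2, at 0.0262.

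Genes linked to Klf15, mainly of branched-chain amino acid breakdown, numbered 12, of which 11 were tested. Limma called none in any of the 3 comparisons with all 9 libraries, with 4, 6 and 0 of the 11 at an unadjusted p under 0.05 in that order, against 35.0%, 33.6% and 4.23% of all genes tested. Without saline 2 it called 4 lower of the 11 between AngII and saline (38.1% of all genes), 3 higher between AngII+PGE1 and AngII (20.6%) and 0 between AngII+PGE1 and saline (0.194%). Between AngII and saline the difference was negative in 9 of the 11, with a median of -0.44 against 0.00 over all genes tested, and between AngII+PGE1 and AngII it was positive in 9 of the 11, with a median of 0.49 against -0.08. These comparisons share the AngII libraries. Acss1, which encodes a mitochondrial acetyl-CoA synthetase, had 97.0, 130 and 148 FPKM in AngII+PGE1, 36.2, 40.5 and 51.0 FPKM in AngII, and 121, 54.3 and 133 FPKM in saline. All AngII libraries were below all others, and saline 2 was the lowest library outside AngII. Its difference of AngII+PGE1 from AngII was 1.53 (SE 0.32, limma adjusted p = 0.0557, range 0.000377 to 0.203 over 18 alternatives), and that of AngII from saline was -1.16 (SE 0.32, adjusted p = 0.0641, range 0.000329 to 0.268). Without saline 2 their adjusted p was 0.00972 and 0.00332, and the difference of AngII from saline was -1.57 (SE 0.21). Bckdhb, a subunit of the branched-chain ketoacid dehydrogenase, had 0.85 (SE 0.19, limma adjusted p = 0.0566) between AngII+PGE1 and AngII and -0.66 (SE 0.19, adjusted p = 0.0690) between AngII and saline, with adjusted p of 0.0226 and 0.0384 without saline 2 and 0.0264 and 0.0340 without AngII+PGE1 1. Its partner subunit Bckdha had 0.31 (SE 0.20, limma adjusted p = 0.299) and -0.44 (SE 0.20, adjusted p = 0.153). Bcat2, the first enzyme of the pathway, had -0.01 (SE 0.18, limma adjusted p = 0.961) and 0.03 (SE 0.18, adjusted p = 0.911).

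Klf15, Per1 and Tsc22d3 also respond to glucocorticoids, so a list of 12 genes induced by those hormones was read beside them, all of them tested. Between AngII and saline limma called 3 with all 9 libraries, against the 3.11% of all genes given above. Zbtb16, which encodes a zinc finger repressor, rose by 0.99 (SE 0.16, limma adjusted p = 0.0392, range 0.00227 to 0.204 over 18 alternatives). Dusp1, a phosphatase of MAP kinases, fell by 1.44 (SE 0.29, limma adjusted p = 0.0421, range 0.00262 to 0.204), and Errfi1, an inhibitor of the EGF receptor, fell by 1.32 (SE 0.31, adjusted p = 0.0496, range 0.000231 to 0.237). Each of these 3 calls was lost when any 1 library other than AngII+PGE1 1 or saline 2 was left out. In the other comparisons limma called none of the 12, with 5 at an unadjusted p under 0.05 between AngII+PGE1 and AngII and 4 between AngII+PGE1 and saline, against 33.6% and 4.23% of all genes tested, beside 7 between AngII and saline, against 35.0%. Without saline 2 it called 3 higher and 4 lower of the 12 between AngII and saline (38.1% of all genes) and 2 lower between AngII+PGE1 and AngII (20.6%). Between AngII+PGE1 and AngII the metallothionein genes Mt2 and Mt1 had differences of -1.68 (SE 0.62, limma adjusted p = 0.106) and -1.14 (SE 0.48, adjusted p = 0.131), and without saline 2 their adjusted p was 0.0223 and 0.0175. Fkbp5, a chaperone of the glucocorticoid receptor, had 0.27 (SE 0.41, limma adjusted p = 0.655), and 0.75 (SE 0.31, adjusted p = 0.0923) without AngII+PGE1 1.

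The kinase that Wee1 inhibits and its regulators made a list of 8, of which 4 passed the filter, and limma called none in any of the 3 comparisons with all 9 libraries, with 1, 2 and 0 of the 4 at an unadjusted p under 0.05 in that order, against 35.0%, 33.6% and 4.23% of all genes tested. Without saline 2 it called 1 of the 4, Pkmyt1, lower between AngII+PGE1 and AngII (limma adjusted p = 0.0416), against 20.6% of all genes, and 0 in the other comparisons. Pkmyt1 was also called there without AngII+PGE1 1 (limma adjusted p = 0.0360) or without AngII 3, and Ccnb2 without AngII 3. Ccnb2 was low, with 0.83, 0.27 and 0.42 FPKM in AngII+PGE1, 2.38, 5.01 and 0.55 FPKM in AngII, and 1.08, 0.61 and 0.62 FPKM in saline. It passed the filter through AngII 1, AngII 2 and saline 1 alone. Cdk1, the gene of the kinase itself, did not pass. Between AngII and saline, Ccnb2 had a difference of 0.85 (SE 0.40, limma adjusted p = 0.157), Pkmyt1 0.76 (SE 0.27, adjusted p = 0.0900) and Cdc25a -0.30 (SE 0.20, adjusted p = 0.286). Ccnb2, a mitotic cyclin gene, had a difference between AngII+PGE1 and AngII of -1.08 (SE 0.40, limma adjusted p = 0.104), Pkmyt1, a kinase related to Wee1, -0.94 (SE 0.27, adjusted p = 0.0696) and Cdc25a, the phosphatase that opposes Wee1, 0.04 (SE 0.20, adjusted p = 0.892). Over the 4 genes the median difference was -0.62, and Wee1 itself had 0.68 (SE 0.30), as given above.

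Between AngII+PGE1 and saline, the listed genes outside the 10 that are named here had limma adjusted p-values of 0.978 or more with all 9 libraries. Arntl had a difference of -1.90 (SE 0.55), Npas2 -0.92 (SE 0.31), Per2 1.70 (SE 0.63) and Per3 1.08 (SE 0.55), all in the direction seen for AngII against saline. Bdh1 had 1.02 (SE 0.33), Tspan4 0.72 (SE 0.38) and the cell cycle inhibitor gene Cdkn1a -0.85 (SE 0.45). Fkbp5 had 1.09 (SE 0.41), Errfi1 -0.89 (SE 0.31) and Acss1 0.36 (SE 0.32). Without saline 2, limma called 2 of the 4 activating limb genes lower, 1 of the 7 repressing limb genes higher and 1 of the 12 glucocorticoid-induced genes lower, beside the 0.194% of all genes given above. These were Arntl, at -2.71 (SE 0.24, limma adjusted p = 0.00522), Npas2, at -1.36 (SE 0.16, adjusted p = 0.0155), Per2, at 2.56 (SE 0.36, adjusted p = 0.0356), and Errfi1, at -1.31 (SE 0.17, adjusted p = 0.0247). Over all alternatives the adjusted p of each of these 4 genes reached 1.0 at its highest, and the calls thus rest on leaving out saline 2.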

How the data were processed

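RNA of mouse hearts was sequenced in 9 libraries, 3 per group. A single table of 16951 genes was deposited, and its expression values, 1 per gene and library, were identified from their size as FPKM (no header names the unit), so read depth is unknown and no counting interval is given. The submitters' processing notes list RSEM 1.2.12, Bowtie2 2.2.5 and HISAT2 2.0.4 along with build mm9, and give no roles. Column names give the group, not the sample. The numbers in the names of the saline and AngII+PGE1 columns do not run from 1 to 3, and libraries are renumbered here in the order of those names. Symbols stored as dates (11) were restored from gene identifiers.

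Values were analysed as log2(FPKM + 1) for the 11902 genes that reached 1 FPKM in 3 libraries or more, in 1 limma 3.58.1 model (R 4.3.3) of 9 libraries with a variance trend and 6 residual degrees of freedom, Benjamini-Hochberg adjustment over all genes and a threshold of 0.05. The model was tested on simulated data. Python 3 tools drew the figures. Promoter sequences are from RefSeq (GRCm38.p6), whose coordinates belong to another build than mm9 and were joined to no measured value. Protein sequences were not used here, and 1 listed gene is not reported here.

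The members and lists were chosen with earlier results of these data known. Named are all 10 members, and of each list the genes past the threshold (up to 4 of largest difference) or, with none, its first 2 tested genes and the 2 of largest difference, plus the 3 genes most and least like Dbp and Nfil3. Alternatives were the 2 compared groups alone, each library left out, saline 2 and AngII+PGE1 1 left out together, no filter, a 5 FPKM minimum, pseudocounts of 0.1 and 0.01 (the last without the variance trend), quantile and median-ratio normalization, and robust limma.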

Additional observations from a re-analysis of the deposited data

How the results depend on the processing

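No paired analysis was possible because the columns of the table carry a group but none of the sample numbers of the labels. Numbers of genes called are given for AngII against saline, AngII+PGE1 against AngII and AngII+PGE1 against saline, in that order. They were 370, 48 and 2 with all libraries. Leaving out 1 library each gave 0 to 4512, 0 to 3193 and 0 to 23. The first count was highest without saline 2 (4512) and 0 without AngII 2, AngII 3, saline 1 or saline 3. Without saline 2 and AngII+PGE1 1 the counts were 5768, 5279 and 19. With no filter they were 88, 6 and 0, and with a pseudocount of 0.01 and no variance trend 19, 9 and 0. Quantile normalization gave 593 in the first, and median-ratio scaling 335 in the second, of which 219 were higher and 116 lower in AngII+PGE1, against 24 and 24 without scaling, and 3 in the third, of which 1 was higher. With only the compared groups in the fit the second was 772 and the third 1. The log2 ratio of activators to Nfil3 ran from 4.21 to 4.65 in AngII+PGE1, 5.15 to 5.81 in AngII and 1.29 to 3.86 in saline with 1 library left out, and the saline mean of 2.99 was 1.29 without saline 2. Of 537 recomputed differences of the 10 genes, the sign changed in 21, in 8 of 30 differences, all of size under 0.3 as reported. Of 1019 recomputed differences of listed genes, 62 gained and 30 lost a call, and the cause was not tested. With no counts in the table, no limit of detection can be given.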
